A study of Bos taurus with 36 samples.

Results

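The 10 genes of fatty acid uptake and oxidation described here were followed in the hearts, gonads and livers of bovine fetuses and in the blood of the heifers that carried them. They were found by matching the 10 gene symbols to bovine RefSeq Entrez identifiers, and all 10 were among the 35092 genes of the count table. They hold 2 that bring fatty acids into and through the cell (CD36, Entrez 281052, and FABP3, Entrez 281758), 3 that carry them into the mitochondrion (CPT1A, Entrez 506812, CPT1B, Entrez 509459, and CPT2, Entrez 504502), 4 that oxidize them (ACADVL, Entrez 282130, ACADM, Entrez 505968, HADHA, Entrez 281810, and HADHB, Entrez 281811) and 1 transcription factor (PPARA, Entrez 281992).

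The 36 RNA-seq libraries came from 10 male fetuses of Day 42 of gestation and their dams. Every fetus grew from a Day 7 embryo, which had been transferred to a recipient heifer on Day 7 of her cycle (ET_D7, synchronous) or on Day 9 (ET_D9, asynchronous). Fetuses are numbered here by weight. Fetuses 1 to 5 (1.253 to 1.37 g) were all ET_D7 and fetuses 6 to 10 (1.396 to 1.69 g) were all ET_D9, so weight and transfer group cannot be told apart as wholes. There were 9 heart libraries (fetus 7 was not analysed here), 9 libraries labelled gonads (without fetus 2), 8 of liver (without fetuses 6 and 7) and 10 of maternal blood.

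Long-chain fatty acids enter cells in part through CD36, a fatty acid translocase of the plasma membrane, and are carried in the cytosol by fatty acid binding proteins, of which FABP3 is the heart form. Inside the cell they are joined to coenzyme A, passed to carnitine by carnitine palmitoyltransferase 1 on the outer mitochondrial membrane and returned to coenzyme A by CPT2 on the inner one. CPT1A is the liver form and CPT1B the muscle form of the first transferase. Beta-oxidation then shortens the chain in repeated rounds, and the adult heart draws most of its energy from it, whereas the early fetal heart is known to lean on glycolysis.

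Several libraries stood apart or resembled each other more than replicates usually do. The counts of gonads 6 and gonads 8 differed by less than sampling noise, with a median chi-square over genes of 0.000749 times the noise expectation, and so did those of liver 1 and liver 2 (0.266 times). The next closest pair of any tissue reached 3.20 times. Each of these pairs was counted as 1 sample in every mean ± SD, which leaves n = 8 for gonads and n = 7 for liver. The main tests kept the libraries of each pair as separate samples. On the log2 scale, liver 9 lay close to an equal mixture of livers 8 and 10 (coefficients 0.51 and 0.50, residual SD 0.068). The relation also ran the other way. Liver 8 was close to a combination of livers 9 and 10 (1.89 and -0.90, residual SD 0.13), and liver 10 to one of livers 8 and 9 (-0.94 and 1.92, residual SD 0.13). Even numbers made up 48.1%, 58.6% and 53.4% of low counts in livers 1, 8 and 10, and 64.3% to 69.5% in livers 2 to 5 and 9. Heart 1 was close to a combination of hearts 2 and 5 (residual SD 0.12). The cause was not tested, nor was which of livers 8, 9 and 10 depends on the others. Results were recomputed with the pairs counted once and without heart 1, gonads 8, liver 1 and liver 9. Livers 8 and 10 were kept there.

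The tissue labels were set against marker genes. All 7 cardiomyocyte markers were higher in every heart library than in every other organ library, and all 6 hepatocyte markers were higher in every liver library. In the libraries labelled gonads, 0 of 7 testis markers were higher than in every other organ library and their summed level was 9.81 to 20.6 CPM (counts scaled to one common library total), whereas all 6 markers of mesonephros and kidney were higher there, with a sum of 346 to 445 CPM. The label is therefore given here as a label. Cardiomyocyte markers summed to 1986, 663 and 375 CPM in livers 3, 4 and 5 and to 10.1 to 107 CPM in the other livers. In hearts they summed to 36716 to 52490 CPM, and in maternal blood 2 and 5 to 3361 and 1109 CPM. The sums of livers 3, 4 and 5 came mostly from ACTC1, and those of blood 2 and 5 mostly from MYH7. In livers ACTC1 reached 1884 CPM and the next highest, MYH7, 56.0 CPM. In blood MYH7 reached 3338 CPM and the next highest, MYH6, 20.3 CPM. Heart medians were 14086 CPM for ACTC1, 10814 CPM for MYH7 and 11625 CPM for TNNT2. Total counts ranged from 18231089 to 40812354 per library. The share of counts on genes of the mitochondrial genome was 17.1% to 57.3% in hearts, 16.3% to 36.8% in livers, 3.31% to 7.23% in gonads and 2.14% to 3.29% in blood.

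Levels below are CPM, scaled by the TMM method over the 26 organ libraries, or over the 10 blood libraries, which came from another library kit and were not tested against the organs. Counts were not corrected for transcript length, so levels are compared between tissues and not between genes. In bulk tissue, fewer cells that express a gene and less RNA per cell cannot be told apart. Differences between organs are log2 fold changes with their standard errors from edgeR's quasi-likelihood test, adjusted by the Benjamini-Hochberg method over the 25095 genes with a count.

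Between heart and liver, 5 of the 10 passed the test as higher in the heart (CPT1B, FABP3, CD36, HADHA and HADHB) and 3 as higher in the liver (PPARA, ACADVL and CPT2), where 27.9% and 30.7% of all genes tested did so. The liver share was thus near the background, and CPT1A and ACADM passed in neither direction. Against the gonads, 8 of 10 were higher in the heart and 0 were lower, where 23.5% of all genes were higher in the heart and 23.1% in the gonads. Between gonads and liver, 1 member was higher in the gonads and 5 in the liver, where the shares of all genes were 30.8% and 33.6%. The median log2 difference of the members was 0.45 for heart minus liver, 1.05 for heart minus gonads and -0.50 for gonads minus liver. Over all genes the medians were 0.00, -0.08 and 0.00.

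**Figure D1:**
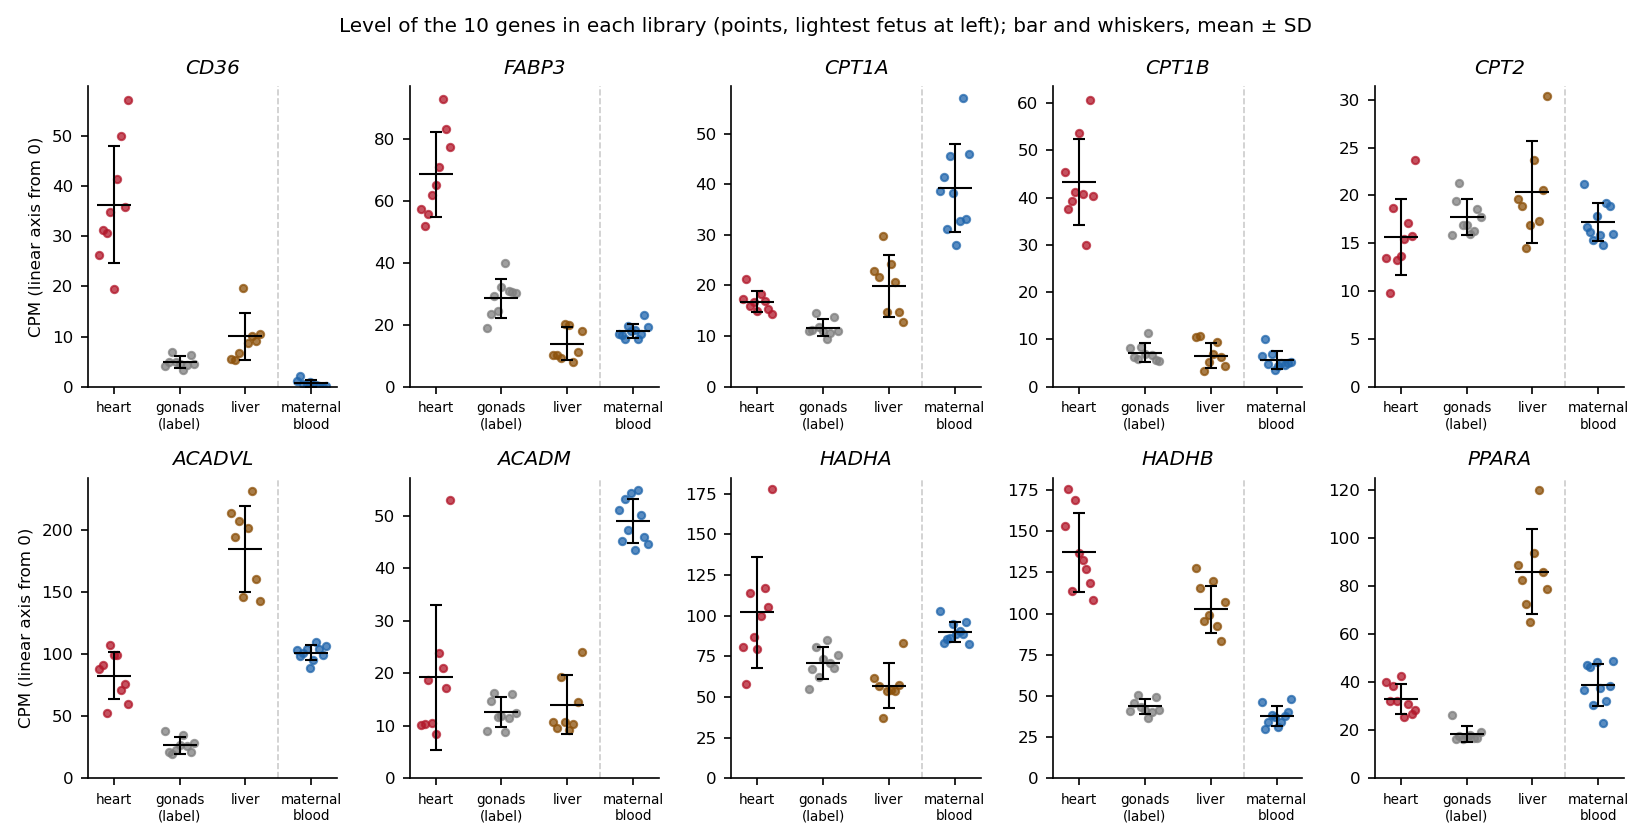
CPM of each member (vertical axes, linear from 0) in each library of heart, gonads, liver and maternal blood, with points ordered from the lightest fetus at the left of each group and the mean ± SD as a bar with whiskers. Blood, beyond the dashed line, was scaled on its own. CPT1B and FABP3 in every heart exceeded every other organ library, whereas ACADVL in every liver exceeded every other organ library.

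Among the uptake genes, CD36 was highest in the heart. Its level there was 19.5, 34.7 and 57.0 CPM (lowest, median and highest library), against 5.397, 8.94 and 19.8 CPM in liver and 3.39, 4.56 and 7.00 CPM in gonads. Hearts did not overlap gonads, and the least of the hearts (fetus 5) lay just below the highest liver (fetus 4). The mean was 36.2 ± 11.7 CPM in heart (SD, n = 9), 10.1 ± 4.65 CPM in liver (SD, n = 7) and 4.96 ± 1.18 CPM in gonads (SD, n = 8). The log2 difference was 1.94 between heart and liver (standard error 0.238, 3.83-fold, adjusted p = 5.40e-08, edgeR) and 2.89 between heart and gonads (standard error 0.235, adjusted p = 3.55e-11, edgeR), and gonads were lower than liver by -0.95 (adjusted p = 0.000723, edgeR). In maternal blood, CD36 was near the limit of detection, with 0 to 96 counts per library and at most 2.22 CPM, the highest being blood 2.

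CD36 is also made by endothelial cells, platelets and monocytes. The 5 endothelial markers summed to 198 to 349 CPM in hearts, 121 to 219 CPM in livers and 117 to 183 CPM in gonads. They did not move together between heart and liver. Medians in heart and liver were 50.1 and 6.62 CPM for PECAM1, 39.4 and 6.99 CPM for CDH5, 67.0 and 16.8 CPM for TEK and 66.4 and 29.5 CPM for KDR. For VWF they were 24.2 CPM in heart and 92.3 CPM in liver. Platelet markers summed to 294 to 451 CPM in livers and 16.7 to 42.7 CPM in hearts, and monocyte and macrophage markers to 74.3 to 134 CPM in livers and 8.34 to 12.7 CPM in hearts. The part of these cells in the CD36 differences was not tested.

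FABP3 was ordered heart, gonads, liver. The heart libraries held 52.1, 65.4 and 93.0 CPM (lowest, median and highest), the gonads 18.9, 30.5 and 39.9 CPM and the livers 8.01, 10.9 and 20.4 CPM. Every heart was above every gonad and liver library, and the ranges of gonads and liver overlapped at their edge. FABP3 was 5.10-fold higher in heart than in liver (log2 2.35, standard error 0.191, adjusted p = 1.51e-11, edgeR), 2.37-fold higher than in gonads (log2 1.24, standard error 0.175, adjusted p = 9.05e-07, edgeR) and 2.15-fold higher in gonads than in liver (log2 1.11, adjusted p = 6.62e-06, edgeR). Livers 4 and 5, whose high cardiomyocyte marker sums came mostly from ACTC1, had the 2 highest FABP3 levels among livers. Without livers 3, 4 and 5, FABP3 was higher in the heart by 2.57 on the log2 scale and CD36 by 2.16, both past the test. Blood held 18.1 ± 2.26 CPM of FABP3 (SD, n = 10).

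The 2 forms of carnitine palmitoyltransferase 1 behaved differently between the organs. CPT1B, the muscle form, had 29.9, 40.7 and 60.7 CPM in hearts (lowest, median and highest), 3.24, 6.65 and 10.8 CPM in livers and 5.42, 6.62 and 11.4 CPM in gonads. Hearts lay well clear of both other organs, which overlapped each other. CPT1B was 6.05-fold higher in heart than in liver (log2 2.60, standard error 0.220, adjusted p = 3.68e-11, edgeR) and 6.01-fold higher than in gonads (log2 2.59, standard error 0.209, adjusted p = 2.94e-11, edgeR). Gonads and liver differed by 0.01, with an interval of 1.96 standard errors on each side from -0.39 to 0.41. In the annotation CPT1B is next to CHKB, a choline kinase gene. Whether reads from this neighbour were counted to CPT1B was not tested.

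CPT1A, the liver form, was detected in all 4 tissues. It had 14.3, 16.7 and 21.2 CPM in hearts, 12.9, 21.2 and 29.8 CPM in livers and 9.37, 10.98 and 14.7 CPM in gonads (lowest, median and highest). Livers spread over the whole range of the hearts. The heart minus liver difference of -0.27 did not pass the test (standard error 0.146, interval -0.55 to 0.02, adjusted p = 0.118, edgeR), and DESeq2 put it at -0.44 with an adjusted p of 0.00522. Gonads were lower than heart (heart minus gonads 0.53, standard error 0.142, adjusted p = 0.00273, edgeR) and lower than liver (gonads minus liver -0.80, standard error 0.146, adjusted p = 2.68e-05, edgeR). In blood it stood at 39.2 ± 8.70 CPM (SD, n = 10).

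CPT2, the inner-membrane partner of both forms, varied least between organs among the members in the carnitine shuttle. Its means were 15.7 ± 3.94 CPM in heart (SD, n = 9), 17.8 ± 1.89 CPM in gonads (SD, n = 8), 20.4 ± 5.32 CPM in liver (SD, n = 7) and 17.2 ± 2.02 CPM in blood (SD, n = 10). The ranges of the 3 organs overlapped. It was lower in heart than in liver by -0.37 on the log2 scale (standard error 0.1501, adjusted p = 0.0369, edgeR), a call that was lost when fetus 1, 2, 5, 6 or 9 was left out, with adjusted p-values up to 0.115, and without heart 1, gonads 8, liver 1 and liver 9 (adjusted p = 0.107). The other 2 differences did not pass by edgeR (heart minus gonads, interval -0.46 to 0.11, and gonads minus liver, interval -0.49 to 0.10). DESeq2 put gonads minus liver at -0.36 with an adjusted p of 0.0151.

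**Figure D2:**
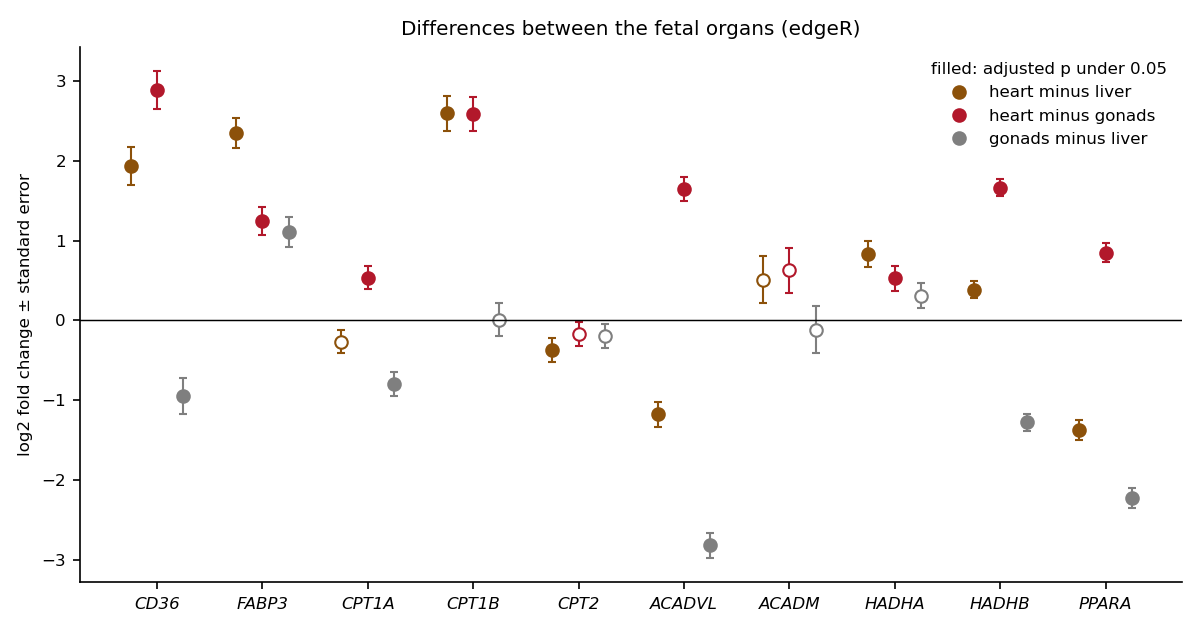
Log2 fold change between organs (vertical axis, whiskers ± standard error) for each member, with filled points where edgeR's adjusted p was under 0.05 and open points elsewhere. CPT1B, FABP3 and CD36 lay above 1 against both other organs in the heart, whereas ACADVL and PPARA were below -1 for heart minus liver.

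Of the acyl-CoA dehydrogenases, which catalyse the opening step of each round, ACADVL takes very long chains and ACADM medium chains. ACADVL fell into 3 levels without overlap. Livers held 143, 198 and 231 CPM (lowest, median and highest), hearts 52.7, 87.9 and 108 CPM, and gonads 19.5, 25.7 and 38.3 CPM. The log2 differences were -1.18 for heart minus liver (standard error 0.152, adjusted p = 1.32e-07, edgeR), 1.64 for heart minus gonads (standard error 0.151, adjusted p = 3.90e-10, edgeR) and -2.82 for gonads minus liver (7.07-fold, standard error 0.159, adjusted p = 5.07e-15, edgeR). Blood held 101 ± 5.92 CPM (SD, n = 10).

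No difference in ACADM between the organs passed the adjusted test. Hearts ran from 8.40 to 53.0 CPM with a median of 17.2 CPM, livers from 9.15 to 24.1 CPM with a median of 10.7 CPM, and gonads from 8.75 to 16.2 CPM with a median of 11.9 CPM. The heart of fetus 10 was the highest, more than 2 of its SDs (13.8 CPM) above the mean of 19.3 CPM. The interval of the difference was -0.06 to 1.09 for heart minus liver (adjusted p = 0.136, edgeR), 0.07 to 1.18 for heart minus gonads (adjusted p = 0.0697, edgeR) and -0.69 to 0.45 for gonads minus liver. The heart minus gonads difference passed when fetus 2 or fetus 4 was left out. In blood ACADM was at 49.0 ± 4.25 CPM (SD, n = 10).

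HADHA and HADHB encode the alpha and beta subunits of the mitochondrial trifunctional protein, which carries out the remaining steps for long chains, and the annotation places them next to each other. HADHB was ordered heart, liver, gonads. Its lowest, median and highest levels were 108, 133 and 175 CPM in hearts, 83.2, 103 and 127.8 CPM in livers and 36.5, 41.5 and 50.7 CPM in gonads. Every gonad library lay below all hearts and livers, whereas hearts and livers overlapped. HADHB was 3.17-fold higher in heart than in gonads (log2 1.66, standard error 0.105, adjusted p = 1.48e-13, edgeR) and lower in gonads than in liver by -1.28 (standard error 0.106, adjusted p = 2.17e-11, edgeR). The heart minus liver difference was smaller, at 0.38 (standard error 0.106, adjusted p = 0.00283, edgeR), and under DESeq2 it was 0.22 (adjusted p = 0.0612). The median of all genes under DESeq2, which differs from edgeR in both scaling and model, was -0.13 for heart minus liver, -0.32 for gonads minus liver and 0.00 for heart minus gonads.

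HADHA had another order. Hearts held 58.0, 99.8 and 178 CPM (lowest, median and highest), gonads 55.1, 71.0 and 85.0 CPM and livers 36.9, 55.4 and 83.2 CPM, and the 3 ranges overlapped. It was higher in heart than in liver (log2 0.84, standard error 0.162, adjusted p = 6.91e-05, edgeR) and than in gonads (log2 0.53, standard error 0.156, adjusted p = 0.00642, edgeR). Gonads and liver differed by 0.31, which did not pass the test (interval -0.0047 to 0.63, adjusted p = 0.0923, edgeR) except when fetus 10 was left out. Blood held 90.0 ± 6.33 CPM of HADHA and 37.7 ± 5.87 CPM of HADHB (SD, n = 10).

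PPARA, a nuclear receptor that binds fatty acids and is known to turn on many genes of their oxidation, was highest in liver. Livers held 64.9, 84.4 and 120 CPM (lowest, median and highest), hearts 25.7, 32.01 and 42.7 CPM and gonads 16.4, 17.3 and 26.6 CPM. No liver overlapped another organ, and the highest gonad library (fetus 1) was just above the lowest heart. The log2 difference was -1.38 for heart minus liver (standard error 0.126, adjusted p = 1.58e-10, edgeR), 0.85 for heart minus gonads (standard error 0.122, adjusted p = 1.25e-06, edgeR) and -2.23 for gonads minus liver (4.69-fold, standard error 0.128, adjusted p = 7.50e-15, edgeR). Blood held 39.0 ± 8.77 CPM (SD, n = 10).

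Ratios of 2 genes within a library do not depend on how libraries are scaled. They do depend on transcript length, so only their differences between libraries are read. Log2 ratios of counts, with 0.5 added to each, were compared by exact 2-sided permutation tests, adjusted over 6 organ comparisons. The ratio of CPT1B to CPT1A was 2.61, 1.77, 2.46, 2.46, 3.59, 2.23, 1.76, 3.93 and 2.81 in hearts 1, 2, 3, 4, 5, 6, 8, 9 and 10. In livers 1, 2, 3, 4, 5, 8, 9 and 10 it was 0.467, 0.497, 0.109, 0.356, 0.291, 0.459, 0.428 and 0.337. Every heart ratio thus lay above every liver ratio. Gonads ran from 0.396 to 1.22, with gonads 7 the highest, and blood from 0.0820 to 0.243.

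The mean log2 ratio of CPT1B to CPT1A was higher in heart than in liver by 2.91 (7.49-fold, exact permutation p = 4.11e-05, the smallest these sample sizes allow, adjusted p = 8.23e-05) and than in gonads by 2.06 (4.18-fold, exact permutation p = 4.11e-05, adjusted p = 8.23e-05). With the near-identical libraries counted once, heart exceeded liver by 2.98 (exact permutation p = 8.74e-05, adjusted p = 0.000262). Gonads exceeded liver by 0.84 (exact permutation p = 0.00333, adjusted p = 0.00400), and by 0.49 without livers 3, 4 and 5 (exact permutation, adjusted p = 0.0659).

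The HADHA to HADHB ratio separated the gonads from the other organs. It was 1.34 to 2.33 in gonads, 0.387 to 0.776 in livers and 0.331 to 1.65 in hearts. Gonads did not overlap livers, and the heart of fetus 10 alone reached into the range of the gonads. The mean log2 ratio was higher in gonads than in liver by 1.60 (3.04-fold, exact permutation p = 4.11e-05, adjusted p = 8.23e-05) and lower in heart than in gonads by -1.18 (exact permutation p = 0.000247, adjusted p = 0.000370). Heart and liver differed by 0.42 (exact permutation p = 0.129, adjusted p = 0.129), or by 0.54 without fetus 2 (exact permutation, adjusted p = 0.0426). In blood the ratio was 1.73 to 2.86.

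**Figure D3:**
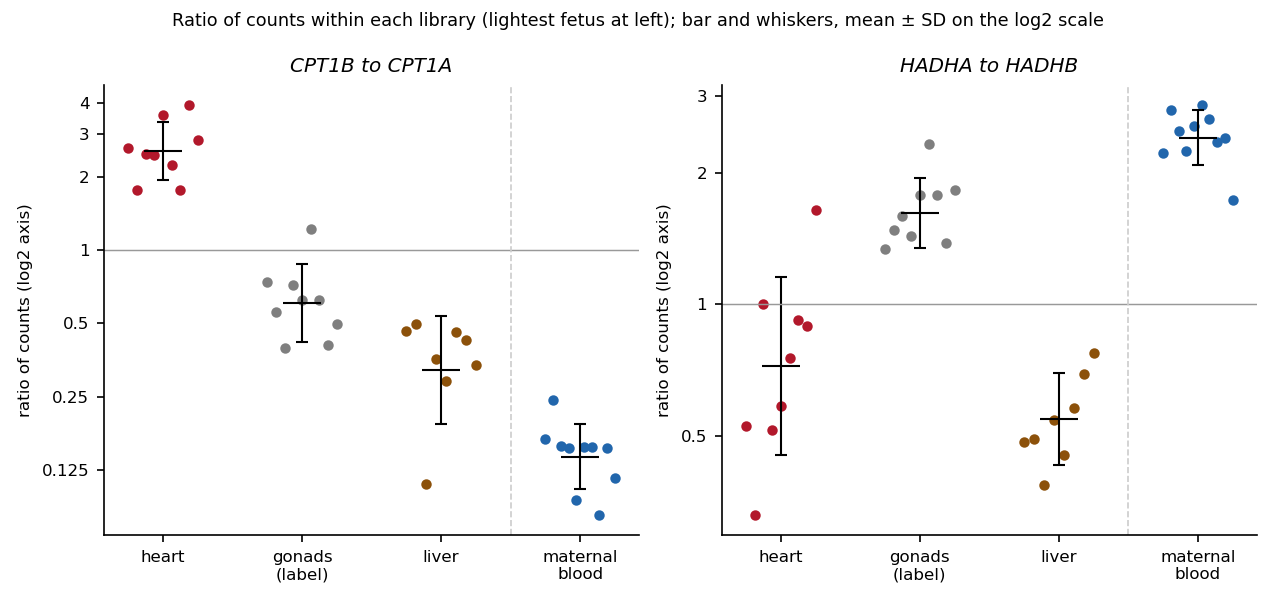
Ratio of counts within each library (vertical axes, log2 scale) for CPT1B to CPT1A and HADHA to HADHB, with points ordered from the lightest fetus and the mean ± SD of log2 ratios as a bar with whiskers. The CPT1B to CPT1A ratios of all 9 hearts lay above those of all 8 livers, and every gonad library had a higher HADHA to HADHB ratio than every liver.

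The second question was whether these genes followed fetal weight in the heart and liver. Each tissue was scaled on its own, and slopes are log2 changes per 0.1 g of fetal weight from edgeR's quasi-likelihood test over genes that reached 10 counts in 4 or more libraries (16250 in heart and 16605 in liver). All 10 members passed this filter in each tissue.

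In the heart, ACADM and FABP3 rose with weight, 2 of 10 members where 5.22% of all genes rose, and no member fell, where 1.54% of all genes fell. At an unadjusted p under 0.05, 5 members had positive slopes (with HADHA, CD36 and CPT2) and 2 had negative slopes (HADHB and PPARA), where the shares of all genes were 16.4% and 12.7%. The members' median slope was 0.09, and that of all genes was -0.01. These calls lay at the edge of the threshold. The share of mitochondrially encoded counts in the hearts had r = -0.76 with weight (exact permutation p = 0.0187, adjusted p = 0.0562 over 9 relations, n = 9), and its part in the slopes was not tested. With those genes left out of the counts FABP3 passed (adjusted p = 0.0436, edgeR) and ACADM did not (adjusted p = 0.0515, edgeR). DESeq2 called 5 members, where it called 3066 of the 16250 genes. With all genes kept no member was called, where 706 of 22766 genes were. No member was called with transfer group in the model, without heart 1, or without fetus 2, 4, 5, 8 or 10. In each of those settings 0 of all genes passed. Without fetus 3, 6 members were called, where 3947 of 15907 genes were.

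FABP3 in the heart was 43.8, 41.2, 43.0, 46.4 and 49.3 CPM in fetuses 1 to 5 and 54.6, 70.6, 64.6 and 58.8 CPM in fetuses 6, 8, 9 and 10. Every ET_D9 heart thus lay above every ET_D7 heart, and the heaviest fetus was not the highest. How many of all genes separate the hearts in this way was not counted. For ET_D9 against ET_D7 hearts, 3994 of 16250 genes had an unadjusted p under 0.05 (edgeR). Of all genes 8 passed the adjusted test, and no member was among them. The log2 slope of FABP3 was 0.15 (standard error 0.0371, adjusted p = 0.0440, edgeR). It was 0.06 with transfer group in the model (adjusted p = 0.737, edgeR), and the call was also lost without fetus 9 (adjusted p = 0.0586, edgeR).

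ACADM in the heart was 7.77, 8.16, 14.3, 7.89 and 6.33 CPM in fetuses 1 to 5 and 18.3, 15.99, 13.3 and 40.2 CPM in fetuses 6, 8, 9 and 10. The highest value belonged to the heaviest fetus, and the ET_D7 and ET_D9 hearts overlapped at fetuses 3 and 9. The slope was 0.41 (standard error 0.107, adjusted p = 0.0496, edgeR), and it was 0.22 without fetus 10 (adjusted p = 0.486, edgeR).

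HADHA and HADHB had slopes of opposite sign in the heart. HADHA was 61.4, 45.8, 87.3, 65.0 and 60.2 CPM in fetuses 1 to 5 and 76.5, 88.8, 81.7 and 135 CPM in fetuses 6, 8, 9 and 10, and its slope was 0.22 (standard error 0.0578, adjusted p = 0.0505, edgeR). HADHB was 117, 139, 87.3, 126 and 103 CPM in fetuses 1 to 5 and 102, 96.6, 91.7 and 81.9 CPM in fetuses 6, 8, 9 and 10, and its slope was -0.12 (standard error 0.0431, adjusted p = 0.113, edgeR). Neither slope passed the test. Fetus 3 stood apart from the other ET_D7 hearts in each gene, with the highest HADHA and the lowest HADHB among them.

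CD36 in the heart was 14.7 to 25.97 CPM in the 5 ET_D7 fetuses and 27.8 to 43.2 CPM in the 4 ET_D9 fetuses, without overlap. As for FABP3, the share of all genes without such overlap was not counted, and CD36 did not pass for ET_D9 against ET_D7. Its slope of 0.20 did not pass the test (standard error 0.0669, adjusted p = 0.0815, edgeR). The summed endothelial markers of the same hearts were 198 to 252 CPM in ET_D7 and 264 to 349 CPM in ET_D9 fetuses, so they moved with CD36, and their part in it was not tested. CPT2 had a slope of 0.15 (adjusted p = 0.106, edgeR) and PPARA one of -0.11 (adjusted p = 0.154, edgeR), with PPARA at 24.2 to 32.2 CPM in ET_D7 and 19.7 to 23.5 CPM in ET_D9 hearts. The slopes of ACADVL (-0.11), CPT1A (-0.07) and CPT1B (0.03) had adjusted p-values of 0.274, 0.317 and 0.788 (edgeR).

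**Figure D4:**
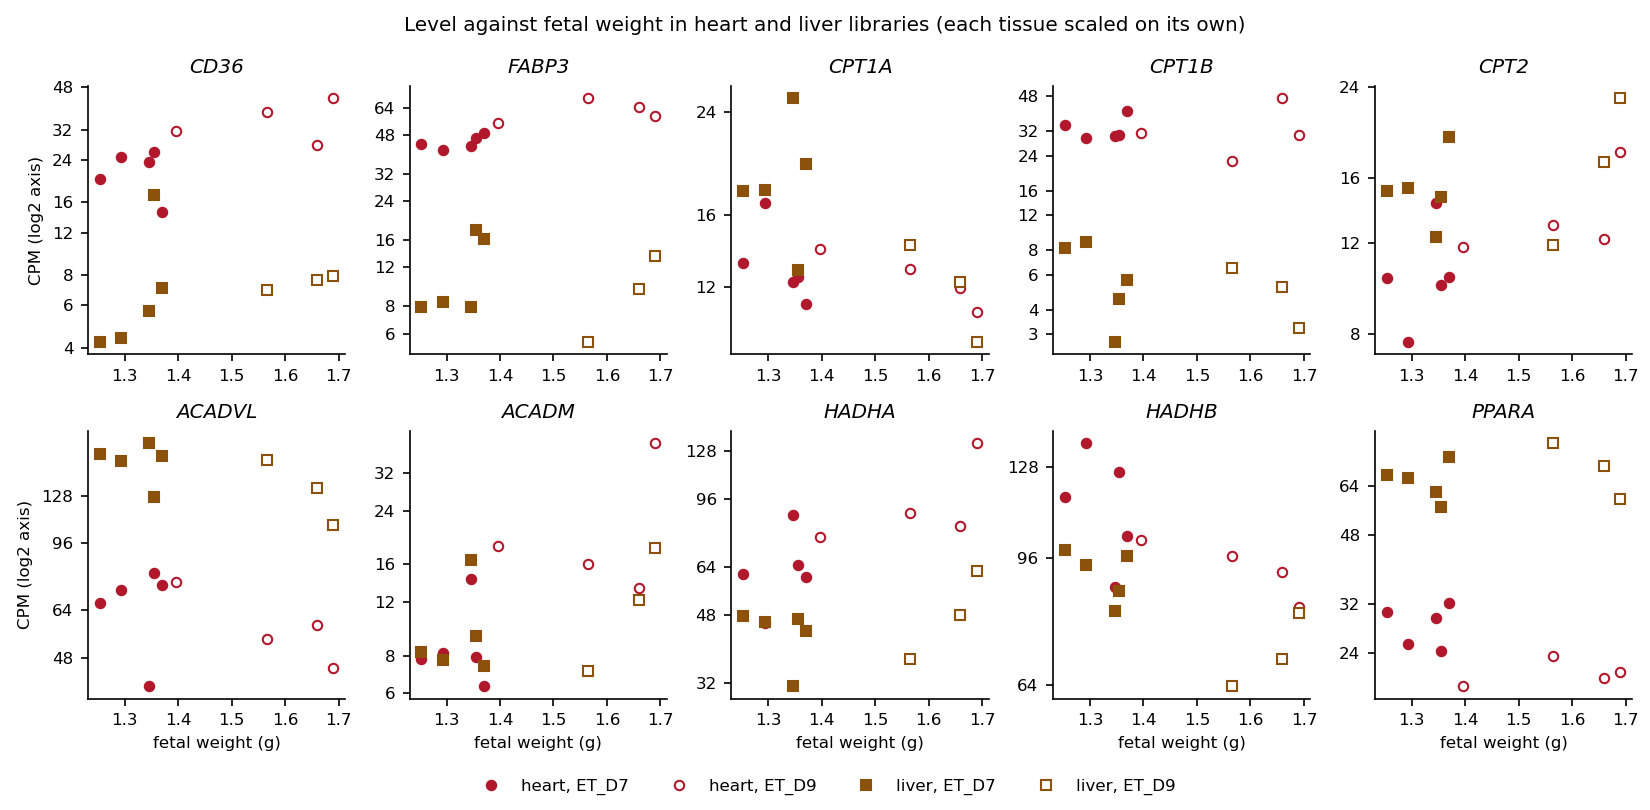
CPM (vertical axes, log2 scale) against fetal weight in g (horizontal axes) for each member in hearts (circles) and livers (squares), with filled symbols for ET_D7 and open symbols for ET_D9, and each tissue scaled on its own. FABP3 and CD36 in ET_D9 hearts lay above all ET_D7 hearts, a separation whose share over all genes was not counted. The highest ACADM value was that of the heart of fetus 10.

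In the liver no member passed the test by edgeR, where 0.44% of all genes rose and 1.79% fell. No member passed by DESeq2 either, where 1518 of 16605 genes did. At an unadjusted p under 0.05, 0 members had positive and 2 had negative slopes, where the shares of all genes were 5.97% and 11.2%. The 2 were CPT1A, whose slope was -0.20 (standard error 0.0756, adjusted p = 0.214, edgeR), and HADHB, with -0.10 (standard error 0.0416, adjusted p = 0.266, edgeR). CPT1A was 17.6, 17.7, 25.4, 12.9 and 19.6 CPM in livers 1 to 5 and 14.2, 12.3 and 9.67 CPM in livers 8, 9 and 10. The lightest and heaviest groups overlapped through liver 4. The other slopes ran from -0.15 (CPT1B) to 0.15 (ACADM), with standard errors of up to 0.147 (CD36). The members' median slope was 0.01, and that of all genes -0.01.

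Liver CD36 was the member most tied to 1 set of libraries. Liver 4 held 17.2 CPM, and livers 1, 2, 3, 5, 8, 9 and 10 held 4.24, 4.39, 5.66, 7.08, 6.96, 7.61 and 7.90 CPM. Liver 4 was more than 2 times the next highest. The slope was 0.05 over all 8 livers (adjusted p = 0.900, edgeR). Without livers 3, 4 and 5, whose cardiomyocyte marker sums were high mostly through ACTC1, it was 0.22 (adjusted p = 0.0192, edgeR). That fit of 5 libraries called 2376 of 14681 genes. It held the near-identical livers 1 and 2, and livers 8, 9 and 10, which were related as given above. Its libraries were thus not 5 separate samples, and its p-values are not read as those of 5 fetuses.

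A fit with a smooth curve in place of a line, a natural spline with 3 degrees of freedom, called no member in either tissue by edgeR, the one tool run. Over all genes it called 0 of 16250 in heart and 301 of 16605 in liver. In heart, 2 members (FABP3 and ACADM) had an unadjusted p under 0.05, where 7.99% of all genes did, and in liver 0 members did, where 17.9% of all genes did.

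The difference between the heart and liver slopes was tested in 1 model over 17 libraries. It passed for 0 of 10 members by edgeR, where 4.98% of all genes passed. By DESeq2 it passed for 0 members too, where 2183 of 18291 genes passed. At an unadjusted p under 0.05 (edgeR) 0 members passed, where 21.3% of all genes did. The smallest adjusted p was that of PPARA (difference -0.12, standard error 0.0676, adjusted p = 0.305, edgeR), and the largest difference that of ACADM (0.26, standard error 0.161, adjusted p = 0.381, edgeR). That ACADM and FABP3 passed in the heart and not in the liver is thus not shown to be a difference between the organs.

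The HADHA to HADHB ratio gave a trend that no scaling could move. In hearts 1 to 5 it was 0.527, 0.331, 1, 0.515 and 0.584, and in hearts 6, 8, 9 and 10 it was 0.752, 0.919, 0.891 and 1.65. In livers 1 to 5 it was 0.485, 0.492, 0.387, 0.544 and 0.453, and in livers 8, 9 and 10 it was 0.579, 0.692 and 0.776. All ET_D9 livers were above all ET_D7 livers, and in the heart fetus 3 was the exception to the same order. The log2 ratio rose by 0.33 per 0.1 g in heart (exact permutation p = 0.0113, adjusted p = 0.0225 over 4 slopes) and by 0.16 per 0.1 g in liver (exact permutation p = 0.00610, adjusted p = 0.0225).

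Within transfer groups the slopes of the HADHA to HADHB ratio kept their sign and did not pass, at 0.31 in heart and 0.11 in liver (exact permutation within groups, adjusted p = 0.377 and 0.482). Without the 2 fetuses farthest from the median weight they did not pass either (0.34 in 7 hearts and 0.093 in 6 livers, exact permutation, adjusted p = 0.560 and 0.581), although the heart slope was no smaller than over all hearts. Leaving out fetus 8 or fetus 10 raised the adjusted p over 0.05 in each organ, to 0.192 in heart and 0.164 in liver without fetus 10, and without heart 1, liver 1 and liver 9 it was 0.0611 in each. The CPT1B to CPT1A ratio had slopes of 0.08 in heart and 0.06 in liver (exact permutation, adjusted p = 0.548 and 0.812). Whether the slopes of the ratios differ between heart and liver was not tested.

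The HADHA to HADHB ratio of the hearts also moved with the share of mitochondrially encoded counts. Ordered from the lowest share, hearts 10, 3, 8, 9, 6, 5, 4, 1 and 2 had shares of 17.1%, 23.5%, 25.5%, 28.5%, 39.0%, 40.8%, 41.5%, 45.1% and 57.3%. The HADHA to HADHB ratios given above fell along this order with 1 exception, the pair of hearts 4 and 1. Pearson's r was -0.97 (exact permutation p = 0.000130, adjusted p = 0.00117) and Spearman's rho -0.98 (exact permutation p = 4.96e-05, adjusted p = 0.000446) over 9 hearts. Without hearts 2 and 10, r was -0.95 (exact permutation p = 0.00635). In liver r was -0.29 (exact permutation p = 0.488) and rho -0.19 (exact permutation p = 0.665). In gonads, r was 0.68 (exact permutation p = 0.0589, adjusted p = 0.132) and rho 0.25, and without gonads 7 and 9 r was -0.28. For the CPT1B to CPT1A ratio, the relation with the share held in gonads (r = 0.92, exact permutation p = 0.000408, adjusted p = 0.00184; rho = 0.90, adjusted p = 0.00913; r = 0.82 without gonads 7 and 9, exact permutation p = 0.0214), and r was -0.26 in heart and -0.20 in liver (exact permutation, adjusted p = 0.727 and 0.746). The relations with the share were chosen after the values were seen and adjusted over 9. Fetal weight had r = -0.76 with that share over the hearts, as given above, rho was -0.72 (exact permutation p = 0.0369, adjusted p = 0.111), and r was -0.62 without hearts 2 and 10 (exact permutation p = 0.161). The part of the share in the trend with weight was not tested.

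**Figure D5:**
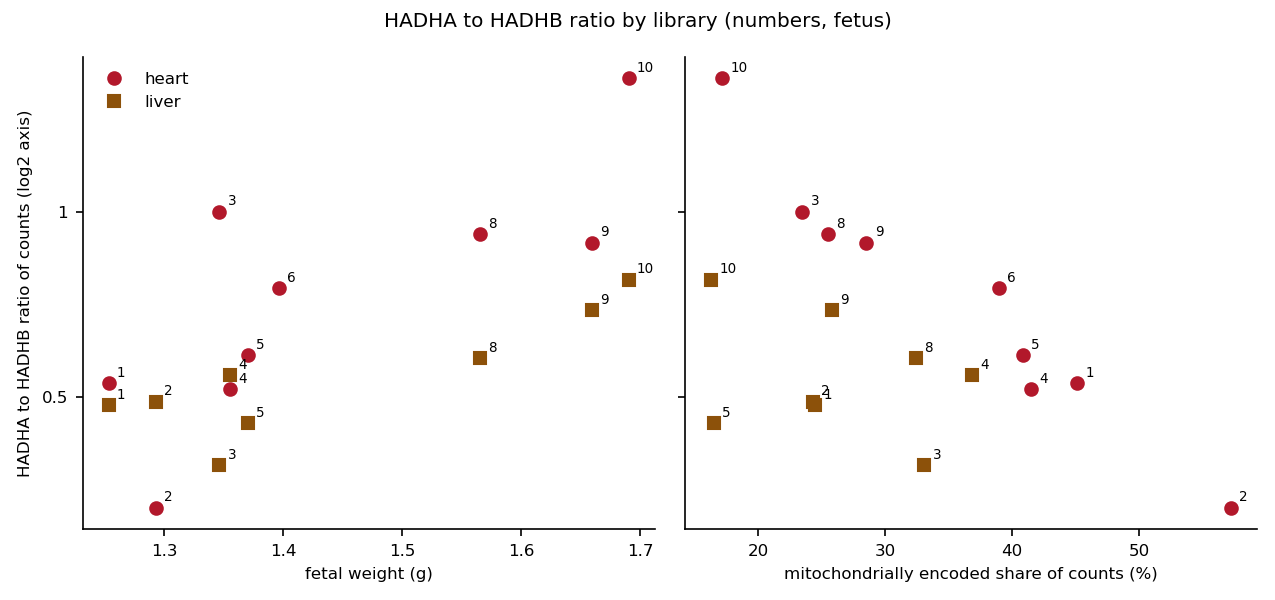
HADHA to HADHB ratio of counts (vertical axis, log2 scale) against fetal weight in g (left) and against the mitochondrially encoded share of counts in percent (right), with 1 point per heart (circles) or liver (squares) and the fetus number beside it. Heart 3 lay above the other light hearts on the left and among the low-share hearts on the right, where the heart values descended from 1.65 at 17.1% to 0.331 at 57.3%.

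In the gonads and in maternal blood no member passed the weight test by edgeR or by DESeq2. Over all genes, 0 of 17809 passed in the gonads by either tool. In blood, 0 of 16284 genes passed by edgeR and 117 by DESeq2. In the gonads 0 members had an unadjusted p under 0.05, where 5.62% of all genes did, and slopes ran from -0.06 (CPT1B) to 0.13 (FABP3). In blood 1 member did, where 9.69% of all genes did. This was CD36 (slope -0.81, standard error 0.245, adjusted p = 0.404, edgeR), which held at most 96 counts in a blood library. Blood 2 and 5, whose cardiomyocyte marker sums came mostly from MYH7, had 2.22 and 0.974 CPM of CD36. Without these libraries the slope was -0.62 (adjusted p = 0.851, edgeR).

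Beside the members, 60 other genes of the pathway were listed by role, and 54 had a count in the organs. FABP2, FABP7, PPARG, ABCD2 and ECHS1 were listed at 0 in all 36 libraries and UCP3 in the 26 organ libraries. ECHS1 encodes a hydratase of the same pathway that most cells are known to use, so it is given only as listed at 0. Between heart and liver, 15 of the 54 were higher in the heart and 28 in the liver, with a median log2 difference of -0.67. The shares over all genes were 27.9% and 30.7%, so the share higher in the heart was that of the background. Against the gonads 26 were higher in the heart and 7 in the gonads, and between gonads and liver 9 were higher in the gonads and 35 in the liver. Over all genes these shares were 23.5% and 23.1%, and 30.8% and 33.6%.

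The other uptake genes split, with 4 of 11 higher in heart than in liver and 5 higher in liver. FABP1, the liver fatty acid binding protein, had 8258 to 28069 counts per liver library, or 703 ± 223 CPM (SD, n = 7), against 0 to 4 counts per heart library. SLC27A2, a fatty acid transporter with acyl-CoA synthetase activity, had 51.9 ± 12.1 CPM in liver (SD, n = 7) and 0 to 7 counts per heart library. The order of the organs was thus opposite for FABP1 and FABP3.

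Of the 5 genes of activation, which join fatty acids to coenzyme A, 1 was higher in heart and 3 in liver. The acyl-CoA synthetases ACSL5 (148.6 ± 21.1 CPM in liver, SD, n = 7, and 3.14 ± 0.946 CPM in heart, SD, n = 9) and ACSL6 (87.8 ± 19.2 and 2.86 ± 1.16 CPM) were lower in heart by -5.55 and -4.94 on the log2 scale (adjusted p = 7.68e-19 and 2.15e-17, edgeR). Of 5 further genes of the carnitine shuttle, 1 was higher in heart and 4 in liver. SLC22A5, the plasma membrane carnitine transporter, was lower in heart by -2.01 (adjusted p = 1.53e-15, edgeR), and CPT1C, a further form of the transferase known mainly from neurons, was higher in heart by 1.14 (adjusted p = 6.60e-06, edgeR).

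Of 12 further genes of mitochondrial oxidation, 2 were higher in heart and 7 in liver. ECI2, an enoyl-CoA isomerase, and ACAD11, an acyl-CoA dehydrogenase, were lower in heart by -2.63 (adjusted p = 3.57e-09, edgeR) and -1.98 (adjusted p = 7.39e-08, edgeR). Of 8 genes of peroxisomal oxidation, 0 were higher in heart and 6 in liver, led by ACOX2 (-2.31, adjusted p = 1.04e-10, edgeR) and EHHADH (-1.53, adjusted p = 6.39e-09, edgeR). Among 13 regulators and genes of ketone synthesis, 7 were higher in heart and 3 in liver. ACACB, which makes the malonyl-CoA that inhibits carnitine palmitoyltransferase 1, had 125.3 ± 42.8 CPM in heart (SD, n = 9) and 3.43 ± 2.67 CPM in liver (SD, n = 7), a log2 difference of 5.33 (standard error 0.481, adjusted p = 1.40e-10, edgeR).

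With fetal weight, 3 of 49 other pathway genes rose in the heart and 0 fell, a share near the 5.22% of all genes that rose. They were ETFA, a subunit of the flavoprotein that takes electrons from the acyl-CoA dehydrogenases (slope 0.25, standard error 0.0552, adjusted p = 0.0400, edgeR), DECR1, a reductase for unsaturated chains (slope 0.18, standard error 0.0406, adjusted p = 0.0419, edgeR), and SLC27A6, a fatty acid transporter with 3 to 91 counts per heart library (slope 0.53, standard error 0.137, adjusted p = 0.0494, edgeR). None of the 3 passed with transfer group in the model or without fetus 1, 2, 4, 5, 8 or 10, where 0 of all genes passed. SLC27A6 did not pass without fetus 6 either, where 758 of 16068 genes passed. In the liver 1 of 52 rose and 0 fell, where 0.44% and 1.79% of all genes did. MLYCD, which breaks malonyl-CoA down, rose by 0.46 per 0.1 g (standard error 0.0933, adjusted p = 0.0416, edgeR), which turned to -0.07 with transfer group in the model. The next by p-value were ACAD9 (-0.26, adjusted p = 0.0613, edgeR) and PPARGC1B (-0.36, adjusted p = 0.0961, edgeR).

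Heart and liver slopes differed for 3 of 52 other pathway genes, a share near the 4.98% of all genes. The 3 were named after their values were seen. The differences were 0.68 for PDK4, a kinase that holds back the entry of pyruvate into oxidation (adjusted p = 0.0123, edgeR), 0.31 for ACSL1, an acyl-CoA synthetase (adjusted p = 0.0159, edgeR), and -0.53 for MLYCD (adjusted p = 0.0187, edgeR). With the fetus as a replicate block they were 0.66, 0.31 and -0.53 and did not pass (adjusted p = 0.0863, 0.0994 and 0.0829, edgeR). Without heart 1, liver 1 and liver 9 they did not pass either (adjusted p = 0.117, 0.138 and 0.0983, edgeR), nor did ACSL1 and MLYCD without fetus 8, 9 or 10.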

How the data were processed

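The authors trimmed reads with Trimmomatic, mapped them with STAR 2.7.0b to the bovine genome ARS-UCD1.3 and counted them with featureCounts of Subread 2.0.3, and deposited whole-number counts per Entrez gene, which were used as they stand. Options for strand, multi-mapping reads and read pairs are not given in the sources used here. Organ libraries came from a stranded mRNA kit and blood libraries from another stranded kit. Symbols came from bovine RefSeq (assembly ARS-UCD2.0, names only) and matched 31630 of 35092 identifiers.

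Counts were tested with edgeR 4.0.16 (TMM, quasi-likelihood test, Benjamini-Hochberg adjustment, threshold 0.05) in R 4.3.3. Organs were fitted together over 26 libraries and genes with at least 1 count. Weight was fitted within each tissue. DESeq2 1.42.0 was an alternative, and the others covered filters, mitochondrially encoded genes, transfer group, the fetus as a replicate block and each fetus left out. Log2 ratios were tested by exact permutation in Python 3.11.15. The scripts were tested on simulated data. Libraries with 1 number came from 1 animal, so the numbers pair the samples. Correlations of same-fetus deviations between heart and liver ran from -0.41 to 0.33 (median 0.03, 9783 genes). Between heart and gonads they ran from -0.44 to 0.48 (median 0.16), against a median of -0.03 for different fetuses. Between gonads and liver they ran from -0.19 to 0.11 (median 0.04).

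The members, pathway lists and markers were chosen with earlier results of these data known. All 10 members were named in each comparison. Of the other pathway genes, the 2 per role with the largest called difference between heart and liver were named, and the 3 with the smallest p for weight in heart and in liver. A gene that this rule picked is not reported here. The 4 library sets left out or merged, and the relations with the mitochondrially encoded share, were chosen after seeing the data. The p-values of the main tests take each library as a separate sample, near-identical pairs included, and the main organ tests hold no term for the fetus. They therefore do not measure the spread between separate fetuses alone. The depth of 18231089 to 40812354 counts limits precision for CD36 in blood in particular.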

Additional observations from a re-analysis of the deposited data

Results flagged for a closer look

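One of 40 sets of member levels, 10 genes in 4 tissues, held a library far from the rest of its group on a log2 scale with 0.5 CPM added. PPARA in the gonads of fetus 1 was at 26.6 CPM, and the gap to the next library took 0.667 of the range of the 9 gonad libraries, above the critical value of 0.493. About 1 in 20 sets would be picked out by chance. The median of the gonad libraries was 17.3 CPM. PPARA was also called lower in gonads than in heart and liver when fetus 1 was left out.

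The heart slope minus the liver slope with weight passed the test for 3 other pathway genes and 0 members. It was 0.68 per 0.1 g for PDK4, 0.31 for ACSL1 and -0.53 for MLYCD (edgeR, adjusted p = 0.0123, 0.0159 and 0.0187). With the fetus as a replicate block the adjusted p-values were 0.0863, 0.0994 and 0.0829.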

How the results depend on the processing

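The organ differences of the members kept their calls under most settings, and lost and gained calls stand beside them in the text. The heart trend did not. Of 10 members, edgeR called 2 with weight in the heart, DESeq2 called 5, and the count was 1 with mitochondrially encoded genes left out and 0 with no filter, with transfer group as a covariate, for ET_D9 against ET_D7, without the 2 fetuses farthest from the median weight and without heart 1. It ran from 0 to 6 with each fetus left out. Over all genes the heart count was 1100 by edgeR, 3066 by DESeq2 and 0 with transfer group as a covariate, and the liver count 371, 1518 and 0. The heart count over all genes was 950 with mitochondrially encoded genes left out, 706 with no filter and 8 for ET_D9 against ET_D7. Without the 2 farthest fetuses and without heart 1 it was 0, and it ran from 0 to 3947 with each fetus left out. In liver 1 member was called without livers 3, 4 and 5, in a fit that kept the near-identical livers 1 and 2 as separate samples. The causes were not tested.

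With the fetus as a replicate block no call of a member changed, and the CPT1B difference between gonads and liver was -0.0034. Blocked differences of the CPT1B to CPT1A log2 ratio were 2.93 (heart minus liver), 2.25 (heart minus gonads) and 0.77 (gonads minus liver), and those of HADHA to HADHB 0.41, -0.98 and 1.49, each on the same side of the threshold. Pairing moved the count of all genes whose heart and liver slopes differ from 911 to 258.

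The HADHA to HADHB slopes in heart and liver did not pass with transfer group means removed (0.31 and 0.11), without the 2 farthest fetuses (0.34 and 0.093) or without heart 1, liver 1 and liver 9 (0.35 and 0.19). With each fetus left out they ran from 0.25 to 0.40 and from 0.14 to 0.18, and the heart minus liver difference of that ratio from 0.30 to 0.54. The CPT1B to CPT1A slope turned to -0.66 in liver with group means removed and to -0.12 in heart without the 2 farthest fetuses, and in liver it ran from -0.029 to 0.14 with each fetus left out. Its gonads minus liver difference was 0.49 without livers 3, 4 and 5.

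The other changes of sign were all in differences or slopes that had not passed the test, apart from MLYCD in liver (-0.072 with the transfer covariate). CPT1B between gonads and liver was -0.14 by DESeq2, -0.016 with a filter, -0.0016 without mitochondrially encoded genes, -0.21 without livers 3, 4 and 5 and -0.10 to 0.12 with each fetus left out, where ACADM ran from -0.21 to 0.052. In heart, the PPARA slope was 0.027 with the transfer covariate, and the CPT1B slope -0.17 without the 2 farthest fetuses and -0.066 to 0.063 with each left out. In liver with the transfer covariate, slopes were 0.95 for FABP3, 0.047 for HADHB and -0.17 for PPARA. The liver FABP3 slope was also 0.00017 by DESeq2, 0.0062 without mitochondrially encoded genes and 0.10 without livers 3, 4 and 5. Without the 2 farthest fetuses, liver slopes were -0.082 for HADHA, -0.083 for CPT2, -0.084 for ACADM and 0.017 for ACADVL. The CD36 liver slope was -0.016 with near-identical libraries counted once. With each fetus left out, liver slopes ran from -0.10 to 0.050 (FABP3), -0.026 to 0.18 (CD36), -0.0064 to 0.092 (HADHA) and -0.0065 to 0.061 (PPARA), and heart minus liver slopes from -0.060 to 0.0067 (ACADVL) and -0.041 to 0.022 (HADHB).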
